A study of Homo sapiens with 12 samples.

Results

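The TALE homeodomain factors MEIS1, MEIS3, PBX2, PBX3, PBX4, PKNOX1, PKNOX2, TGIF1 and TGIF2 were followed by RNA-seq in derivatives of the CWR-22Rv1 prostate cancer cell line, an established human line. These 9 genes were fixed by name and matched to the deposited tables by gene symbol. Values were found for 8 of them among 13951 genes, and PKNOX2 was not analysed here. All lines were grown in medium with puromycin and cultured for 48 h before RNA was taken. The 12 libraries formed 4 groups of 3 replicates. Control cells carried Cas9 without a guide RNA, and LV-MEIS1 cells expressed MEIS1 from a lentiviral vector. HOXB13ko cells carried an integrated Cas9 and had been targeted at HOXB13 by CRISPR, and HOXB13ko-LV-MEIS1 cells were that line infected with the MEIS1 vector. The knockout line was a pool of several clones recombined after selection, and the study's methods do not say whether LV-MEIS1 cells carry Cas9. Each group is therefore 1 derived line or pool, and nothing in the labels says that replicates were separately derived, so p-values measure the spread between these libraries only.

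TALE proteins carry a homeodomain lengthened by a loop of 3 amino acids between its first and second helices. MEIS and PKNOX (also called PREP) proteins bind PBX proteins through their amino-terminal domains, and these pairs join HOX proteins on DNA and sharpen the choice of HOX binding sites. HOX proteins of groups 9 to 13, among them the prostate factor HOXB13, can also contact MEIS proteins directly. TGIF1 and TGIF2 belong to the same superfamily and act mainly as repressors that bind SMAD proteins of the TGF-beta pathway. The design asks what exogenous MEIS1 does with and without HOXB13. The members give the mRNA level of some other TALE genes whose products MEIS1 could pair or compete with. Levels of their proteins are not part of these values.

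The coding stretch around the loop is what sets these genes apart from other homeobox genes, so it is shown for each of the 8 genes. The sequences were read from GRCh38 along the principal transcript of GENCODE release 44, on the coding strand from 5′ to 3′, and the capitals mark the 3 codons of the loop.
MEIS1: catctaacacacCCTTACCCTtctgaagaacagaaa
MEIS3: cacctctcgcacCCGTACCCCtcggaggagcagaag
PKNOX1: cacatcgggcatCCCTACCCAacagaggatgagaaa
PBX2: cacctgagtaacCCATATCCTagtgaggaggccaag
PBX3: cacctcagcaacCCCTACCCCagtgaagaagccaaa
PBX4: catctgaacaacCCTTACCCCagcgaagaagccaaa
TGIF1: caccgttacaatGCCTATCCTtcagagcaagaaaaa
TGIF2: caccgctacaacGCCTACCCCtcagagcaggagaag

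The stretch lies across the boundary of coding exons 8 and 9 in MEIS1 (chr2:66512286-66547969, plus strand, 13 exons), in MEIS3 (chr19:47407402-47409107, minus strand, 13 exons) and in PKNOX1 (chr21:43021423-43024897, plus strand, 11 exons). It lies within exon 5 in PBX2 (chr6:32187686-32187721, minus strand, 9 exons), PBX3 (chr9:125935533-125935568, plus strand, 9 exons) and PBX4 (chr19:19569488-19569523, minus strand, 8 exons). In TGIF1 (chr18:3456506-3456541, plus strand) and TGIF2 (chr20:36578892-36578927, plus strand) it lies within exon 2 of 3. Over the 189 coding bases of the homeodomain, MEIS1 and MEIS3 shared 78.8% of positions, TGIF1 and TGIF2 74.6%, and the 3 PBX genes between 79.4% and 80.4% of positions in each pair. PKNOX1 shared 64.0% with MEIS1 and 69.3% with MEIS3, and the lowest value of all pairs was 44.4%, between PBX2 and TGIF1. The MEIS, PBX and TGIF genes were thus each closest to their own family, and PKNOX1 was closest to the MEIS genes. Where a 50 bp read fitted more than 1 transcript, the authors' processing shared it out between them.

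The values are CPM, read counts scaled to library size, and all fold changes below are differences of mean log2(CPM + 0.5), which understate the change of genes with low CPM. A gene was called when its p-value from limma's treat test, set against a fold change of 1.5 and adjusted over all 13951 genes by Benjamini-Hochberg, was under 0.05. Limma's eBayes test against no change was used as a second, more permissive rule. Adjusted p-values depend on how many genes change in a comparison, so they do not rank differences between comparisons. Depth was estimated from the steps between low CPM values at 17200000 to 28700000 reads per library, so 3 reads correspond to 0.105 to 0.175 CPM. HOXB13 mRNA was not lower in the libraries labelled HOXB13ko: it was between 185 and 215 CPM in Control, 150 and 152 in LV-MEIS1, 307 and 347 in HOXB13ko, and 326 and 375 in HOXB13ko-LV-MEIS1. Groups are therefore given by label. The study checked the knockout by western blot of HOXB13 protein, which these mRNA values do not measure. CPM summed over a gene does not tell an edited transcript from an intact one, nor fewer cells with a transcript from less of it per cell. All 8 luminal prostate markers were listed, and their summed level was 2965 to 3070 CPM in Control, 2269 to 2318 in LV-MEIS1, 3008 to 3022 in HOXB13ko and 2971 to 3103 in HOXB13ko-LV-MEIS1. Of the 3 stromal markers ACTA2 was listed, at 8.68 to 9.15 CPM in Control, 4.70 to 6.11 in LV-MEIS1, 12.1 to 13.7 in HOXB13ko and 12.1 to 15.9 in HOXB13ko-LV-MEIS1, and no values of the 3 basal, 2 endothelial and 3 leukocyte markers were analysed here. The part of these marker levels in the members' values was not tested.

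MEIS1, the gene delivered by the vector, was the member whose group means differed by the largest ratio. The 3 Control libraries had 4.24, 4.45 and 4.05 CPM, and the 3 LV-MEIS1 libraries had 49.6, 46.8 and 45.8 CPM. HOXB13ko libraries had 3.65, 3.59 and 3.42 CPM, and HOXB13ko-LV-MEIS1 libraries had 30.1, 29.8 and 29.3 CPM. No pair of groups overlapped, and the order was LV-MEIS1, HOXB13ko-LV-MEIS1, Control and HOXB13ko. Mean CPM was 11.2-fold higher in LV-MEIS1 than in Control and 8.37-fold higher in HOXB13ko-LV-MEIS1 than in HOXB13ko. Reads from the native gene (chr2:66433452-66573869, ENSG00000143995) and from the vector cannot be told apart in gene-level CPM. Against Control, MEIS1 in HOXB13ko was lower by a log2 difference of -0.23 ± 0.07 (SE, n = 3 per group), with a limma eBayes adjusted p of 0.0314 and a treat adjusted p of 1. That eBayes call was lost without replicate 2 of Control (adjusted p = 0.108), replicate 2 of HOXB13ko (0.0631) or replicate 3 of HOXB13ko (0.102), under quantile scaling (0.0501), and with only the libraries compared in the fit (0.177).

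The lines with the vector held unequal amounts of MEIS1 mRNA. HOXB13ko-LV-MEIS1 had 1.59-fold less mean CPM than LV-MEIS1, a log2 difference of -0.66 (p = 0.1 in a two-sided exact permutation test, whose lowest possible p with 3 and 3 libraries this is). Any comparison of other members between these lines carries this difference in MEIS1 with it. In the test of whether the MEIS1 effect itself differed with the knockout label, the log2 increase of MEIS1 was larger by 0.44 ± 0.11 (SE) without the label, past limma's eBayes (adjusted p = 0.00627) and not treat (adjusted p = 1). Across replicates MEIS1 was the most even of the members, with a within-group SD of 0.048 on the log2 scale, at the 2.02nd percentile of 4604 genes within 2-fold of its level.

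**Figure D1:**
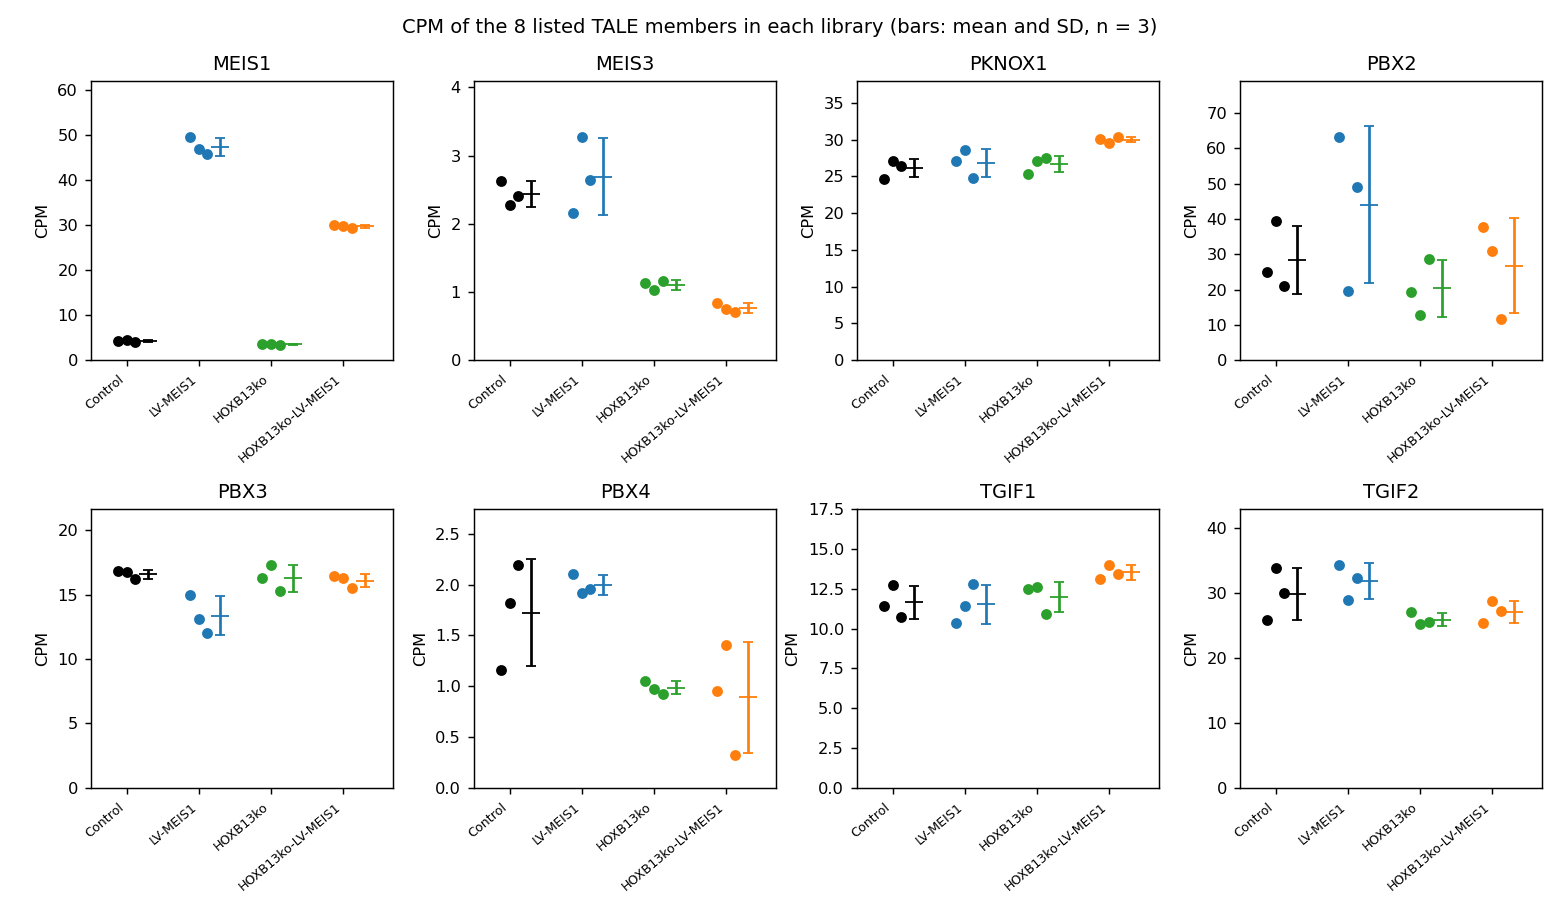
CPM (vertical axis, linear, from 0) of the 8 TALE genes in each library, with 1 point per library and the mean and SD of 3 libraries beside each group on the horizontal axis. MEIS1 rises from about 4 CPM to between 45.8 and 49.6 CPM in LV-MEIS1 and between 29.3 and 30.1 CPM in HOXB13ko-LV-MEIS1, MEIS3 is lowest in both groups labelled HOXB13ko, and PBX2 libraries of each group are far apart.

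MEIS3 (ENSG00000105419, chr19:47403124-47419527, minus strand), a MEIS1 paralogue that also pairs with PBX proteins, differed with the knockout label. It had 2.63, 2.27 and 2.40 CPM in Control and 2.15, 3.27 and 2.64 CPM in LV-MEIS1. In HOXB13ko it had 1.13, 1.02 and 1.16 CPM, and in HOXB13ko-LV-MEIS1 it had 0.842, 0.747 and 0.708 CPM. Every library with the knockout label lay below every library without it, and Control and LV-MEIS1 overlapped. All values were above the level of 3 reads, and the lowest corresponded to about 18 estimated reads. In HOXB13ko-LV-MEIS1 the mean CPM of MEIS3 was 3.51-fold lower than in LV-MEIS1, a log2 difference of -1.32 ± 0.16 (SE; limma treat adjusted p = 0.00364). The stromal marker ACTA2 was called in the same comparison, higher by 1.19 on the log2 scale (limma treat adjusted p = 0.00187), and its part in the MEIS3 value was not tested. In HOXB13ko the mean CPM of MEIS3 was 2.20-fold lower than in Control, a log2 difference of -0.87 ± 0.16. This passed limma's eBayes test with an adjusted p of 9.9e-04, while its treat p was 0.046 unadjusted and 1 adjusted.

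With MEIS1 added, no difference of MEIS3 passed either test. The log2 difference was 0.11 ± 0.16 between LV-MEIS1 and Control (95% interval -0.23 to 0.44). Between HOXB13ko-LV-MEIS1 and HOXB13ko it was -0.34 ± 0.16 (95% interval -0.68 to -0.00477), where the groups did not overlap but the limma eBayes adjusted p was 0.332. The difference between these MEIS1 effects was 0.45 ± 0.22 (limma eBayes adjusted p = 0.134). At these levels, of 18 to 71 estimated reads per library, smaller changes of MEIS3 were not detectable.

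PKNOX1 (ENSG00000160199, chr21:42974510-43033931, plus strand), which competes with MEIS proteins for PBX partners, was nearly level across the 4 groups. It had 24.7, 27.1 and 26.5 CPM in Control, 27.0, 28.6 and 24.8 in LV-MEIS1, 25.4, 27.0 and 27.5 in HOXB13ko, and 30.1, 29.6 and 30.4 in HOXB13ko-LV-MEIS1. The first 3 groups overlapped, and the HOXB13ko-LV-MEIS1 libraries lay above all others. The log2 difference was 0.04 ± 0.07 (SE) in LV-MEIS1 against Control (95% interval -0.11 to 0.18). It was 0.17 ± 0.07 in HOXB13ko-LV-MEIS1 against HOXB13ko (limma eBayes adjusted p = 0.268) and 0.16 ± 0.07 against LV-MEIS1 (limma eBayes adjusted p = 0.0583). The last difference passed eBayes at an adjusted p of 0.0459 when libraries were scaled by median of ratios. It also passed at 0.0203 under quantile scaling and at 0.0331 without replicate 2 of LV-MEIS1.

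Among the PBX genes, which encode the common partners of MEIS, PKNOX and HOX proteins, PBX3 showed the smallest spread. PBX3 (ENSG00000167081, chr9:125747345-125967377, plus strand) had 16.9, 16.7 and 16.2 CPM in Control and 15.0, 13.1 and 12.1 CPM in LV-MEIS1. It had 16.3, 17.3 and 15.3 CPM in HOXB13ko and 16.5, 16.3 and 15.5 CPM in HOXB13ko-LV-MEIS1. The LV-MEIS1 libraries lay below those of the other 3 groups, which overlapped. The log2 difference of LV-MEIS1 from Control was -0.31 ± 0.09 (SE), a 1.24-fold lower mean CPM, with a limma eBayes adjusted p of 0.00938 and a treat adjusted p of 1. HOXB13ko-LV-MEIS1 differed from HOXB13ko by -0.02 ± 0.09 (95% interval -0.20 to 0.17).

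The difference between the MEIS1 effects on PBX3 was -0.29 ± 0.12 on the log2 scale, which did not pass limma's eBayes test (adjusted p = 0.0762). It passed under quantile scaling (0.0303) and without replicate 1 of LV-MEIS1 (0.0237). HOXB13ko-LV-MEIS1 was higher than LV-MEIS1 by 0.26 ± 0.09 (limma eBayes adjusted p = 0.0193), and this call was lost without replicate 2 (0.0543) or 3 (0.097) of LV-MEIS1 or replicate 1 of HOXB13ko-LV-MEIS1 (0.0569).

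PBX4 (ENSG00000105717, chr19:19561707-19618693, minus strand), a PBX family member best known from testis, was the least abundant PBX gene measured here in CPM. It had 1.16, 1.82 and 2.20 CPM in Control, 2.10, 1.92 and 1.96 in LV-MEIS1, 1.05, 0.977 and 0.927 in HOXB13ko, and 0.949, 1.41 and 0.319 in HOXB13ko-LV-MEIS1. HOXB13ko lay below Control in all libraries, and the same held for HOXB13ko-LV-MEIS1 below LV-MEIS1. The lowest library corresponded to about 8 estimated reads. HOXB13ko-LV-MEIS1 was lower than LV-MEIS1 by -0.93 ± 0.26 on the log2 scale (limma eBayes adjusted p = 0.00828, treat adjusted p = 0.956), and the value was -0.59 without replicate 3 of HOXB13ko-LV-MEIS1. In HOXB13ko against Control the log2 difference was -0.56 ± 0.26 (limma eBayes adjusted p = 0.112), and it passed without replicate 1 of Control (0.0462) or replicate 3 of HOXB13ko-LV-MEIS1 (0.0397).

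PBX2 (ENSG00000204304, chr6:32184733-32190202, minus strand) varied widely between replicates in every group. It had 25.0, 39.3 and 20.9 CPM in Control, 63.3, 19.7 and 49.1 in LV-MEIS1, 19.2, 12.9 and 28.8 in HOXB13ko, and 37.6, 31.0 and 11.7 in HOXB13ko-LV-MEIS1. All 4 groups overlapped. Its log2 differences were 0.52 ± 0.44 (SE) in LV-MEIS1 against Control, -0.50 ± 0.44 in HOXB13ko against Control, 0.31 ± 0.44 in HOXB13ko-LV-MEIS1 against HOXB13ko and -0.71 ± 0.44 in HOXB13ko-LV-MEIS1 against LV-MEIS1, and none passed limma's eBayes test (lowest adjusted p = 0.195). The last comparison passed without replicate 2 of LV-MEIS1 (adjusted p = 0.0273). The interval in LV-MEIS1 against Control ran from -0.42 to 1.46, so neither a fall nor a more than 2-fold rise was outside it.

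The PBX2 libraries held 293 to 1325 estimated reads. The within-group SD of PBX2, 0.720 on the log2 scale, was at the 99.8th percentile of 5194 genes within 2-fold of its level, whose median SD was 0.0954. PBX2 lies in the major histocompatibility complex (MHC) region of chromosome 6, for which the assembly holds alternate haplotype sequences. Of 86 genes with at least 5 CPM between 28000000 and 34000000 of chromosome 6, 14 (16.3%) had a within-group SD of at least 0.5, against 68 of all 11550 genes at that level (0.589%). This window was chosen after the values of PBX2 were seen, the genes in it are not independent, and how reads were divided among haplotypes was not tested. PBX4 was at the 90.8th percentile for its level, and the other 6 members were at or below the 76.7th.

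**Figure D2:**
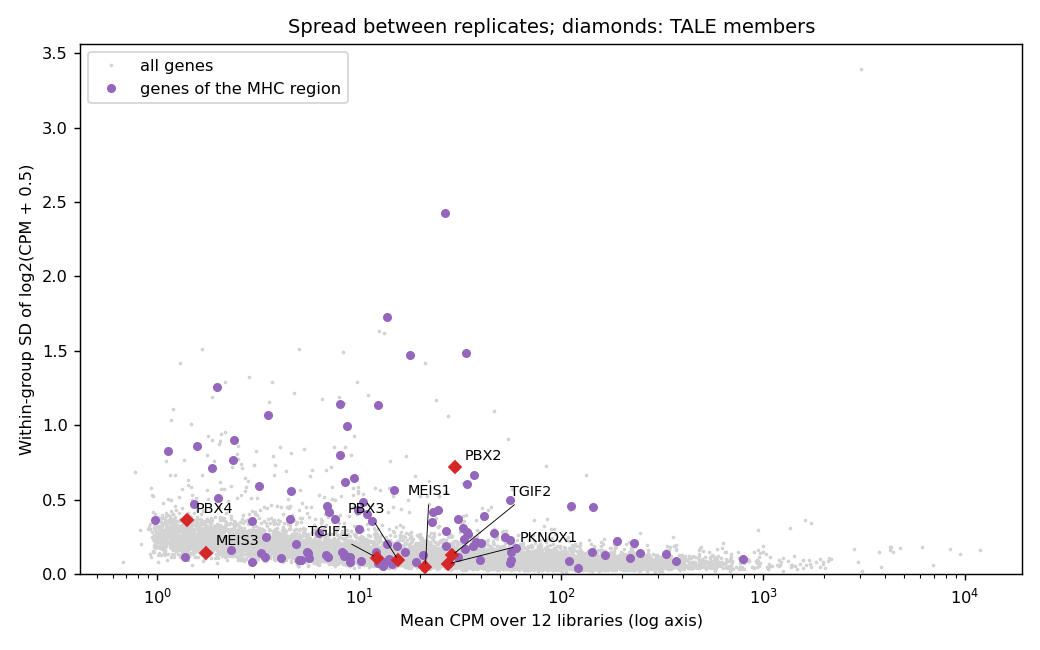
Within-group SD of log2(CPM + 0.5) (vertical axis) against mean CPM over 12 libraries (horizontal axis, logarithmic), with grey points for all genes, purple points for genes of the MHC region and red diamonds for the 8 TALE genes. PBX2, at 0.720, stands well above genes of its level, as do several other genes of the MHC region, while the other TALE genes lie within the grey band.

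TGIF1 and TGIF2, the SMAD-binding repressors, stayed within a narrow range. TGIF1 (ENSG00000177426, chr18:3411608-3459978, plus strand) had 11.4, 12.7 and 10.7 CPM in Control, 10.4, 11.4 and 12.8 in LV-MEIS1, 12.5, 12.6 and 10.9 in HOXB13ko, and 13.1, 14.0 and 13.5 in HOXB13ko-LV-MEIS1. The HOXB13ko-LV-MEIS1 libraries were above all others and the other groups overlapped. Its log2 difference was -0.02 ± 0.10 (SE) in LV-MEIS1 against Control (95% interval -0.22 to 0.19) and 0.17 ± 0.10 in HOXB13ko-LV-MEIS1 against HOXB13ko (limma eBayes adjusted p = 0.433). It was 0.23 ± 0.10 in HOXB13ko-LV-MEIS1 against LV-MEIS1 (limma eBayes adjusted p = 0.0639), which passed under quantile scaling (0.0118) and without replicate 3 of LV-MEIS1 (0.0304).

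TGIF2 (ENSG00000118707, chr20:36573488-36593950, plus strand) had 25.8, 33.9 and 30.0 CPM in Control, 34.4, 29.0 and 32.4 in LV-MEIS1, 27.1, 25.2 and 25.5 in HOXB13ko, and 25.4, 28.7 and 27.3 in HOXB13ko-LV-MEIS1. Of the 4 pairs compared, HOXB13ko-LV-MEIS1 and LV-MEIS1 alone did not overlap. Its log2 difference between them was -0.23 ± 0.09 (SE; limma eBayes adjusted p = 0.0519), a p that fell under 0.05 without replicate 1 (0.0247) or 2 (0.028) of Control, replicate 2 of LV-MEIS1 (0.0255) or replicate 2 of HOXB13ko-LV-MEIS1 (0.0483), with libraries scaled to an equal sum (0.0219), and with only the libraries compared in the fit (0.0342). The log2 difference in LV-MEIS1 against Control was 0.10 ± 0.09 (95% interval -0.10 to 0.30). In HOXB13ko against Control it was -0.19 ± 0.09 (limma eBayes adjusted p = 0.123), and it passed without replicate 1 of Control (0.0193).

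In LV-MEIS1 against Control, limma's treat called 1 of the 8 members, MEIS1 itself, where it called 3.99% of all genes. Limma's eBayes called 2 members, MEIS1 higher and PBX3 lower, where it called 44.5% of all genes (23.2% higher and 21.3% lower). The groups did not overlap for 2 members, against 51.3% of all genes. The median log2 difference of the members was 0.10, beside 0.01 over all genes.

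In HOXB13ko against Control, limma's treat called 0 of the 8 members (1 at an unadjusted p under 0.05) where it called 1.41% of all genes, and eBayes called 2, MEIS1 and MEIS3, both lower, where it called 32.9% of all genes (16.5% higher and 16.4% lower). MEIS1, MEIS3 and PBX4 were lower in every HOXB13ko library, and such separation in either direction held for 44.9% of all genes. The median of the members was -0.21, beside -0.00166 over all genes. In HOXB13ko-LV-MEIS1 against HOXB13ko, treat called MEIS1 (log2 difference 2.90 ± 0.07, adjusted p = 9.6e-11), the single gene called of 13951 (0.00717%), and eBayes also called no other member, with 0.0502% of all genes called. MEIS1, PKNOX1 and TGIF1 were higher and MEIS3 lower in every library of that comparison, where 21.1% of all genes did not overlap. The median of the members was 0.12, beside 0.00590 over all genes.

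In HOXB13ko-LV-MEIS1 against LV-MEIS1, treat called MEIS3, lower, where it called 6.71% of all genes. Limma's eBayes called 4 of the 8 members, MEIS1, MEIS3 and PBX4 lower and PBX3 higher, where it called 50.1% of all genes (24% higher and 26.1% lower). The groups did not overlap for 7 members, PBX2 being the exception, against 58.3% of all genes. The median of the members was -0.45, beside -0.02 over all genes. In the difference of the MEIS1 effects, treat called 0 members (0 at an unadjusted p under 0.05) where it called 2.93% of all genes, and eBayes called MEIS1, where it called 34.2%. These comparisons share groups with each other, so their values are given side by side and not as repeats.

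**Figure D3:**
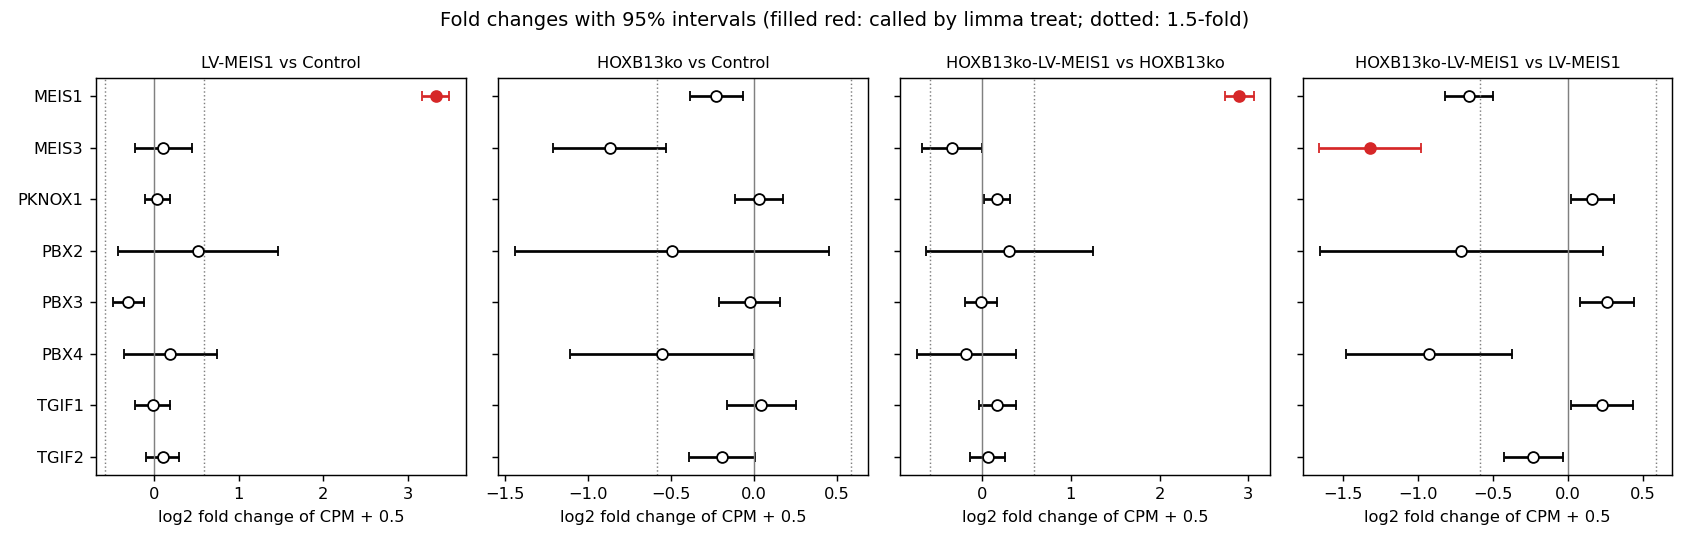
Log2 fold change of CPM + 0.5 (horizontal axis, a scale of its own in each panel) with 95% intervals from limma for the 8 TALE genes in 4 comparisons, with filled red points for genes called by limma's treat and dotted lines at a 1.5-fold change. MEIS1 is called in both comparisons that add the vector and MEIS3 in HOXB13ko-LV-MEIS1 against LV-MEIS1, and the intervals of PBX2 are the widest in every panel.

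Levels were compared between genes as CPM per kb of the longest coding transcript in GENCODE. For MEIS1 this native length was also used in the libraries with the vector. In Control the order of levels was PBX2 (8.79 CPM per kb), TGIF2 (8.71), PBX3 (5.72), PKNOX1 (4.92), TGIF1 (3.67), MEIS3 (1.16), PBX4 (1.15) and MEIS1 (0.831). PBX2 and TGIF2 did not differ beyond their spread, nor did PBX4 from either MEIS3 or MEIS1. MEIS1 thus had the lowest mean of the 8 members in Control, and PBX3 and PKNOX1 were several times higher per length. In LV-MEIS1, MEIS1 reached 9.27 CPM per kb and the third place, overlapping TGIF2 (9.30) and above PKNOX1 (5.06) and PBX3 (4.61). In HOXB13ko the level of MEIS1 was 0.696 CPM per kb and that of MEIS3 0.525, the lowest member there. In HOXB13ko-LV-MEIS1, MEIS1 was at 5.82 CPM per kb, close to PKNOX1 (5.66) and PBX3 (5.54), and MEIS3 was again last (0.364).

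The ratio of MEIS1 to PKNOX1 per kb was taken in each library, since their products compete for PBX. It was 0.178, 0.171 and 0.159 in Control and 1.90, 1.70 and 1.91 in LV-MEIS1. It was 0.149, 0.138 and 0.129 in HOXB13ko and 1.04, 1.05 and 1.00 in HOXB13ko-LV-MEIS1. The groups did not overlap, and MEIS1 mRNA exceeded PKNOX1 mRNA per length in the libraries with the vector. The length of the transcript made from the vector was not known, so levels per kb of MEIS1 in those libraries are approximate. The native length used was 5111 bases. If the vector held less MEIS1 sequence, the levels and ratios of MEIS1 given for those libraries are too low. The union of all exons of MEIS1 is longer, at 10942 bases, and lowers them further. With the union of all exons as the length, 15 of 32 places in the orders changed, MEIS1 kept the last place in Control and the third in LV-MEIS1, and it fell to the fifth in HOXB13ko-LV-MEIS1, at 2.72 CPM per kb against 3.94 for PKNOX1.

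**Figure D4:**
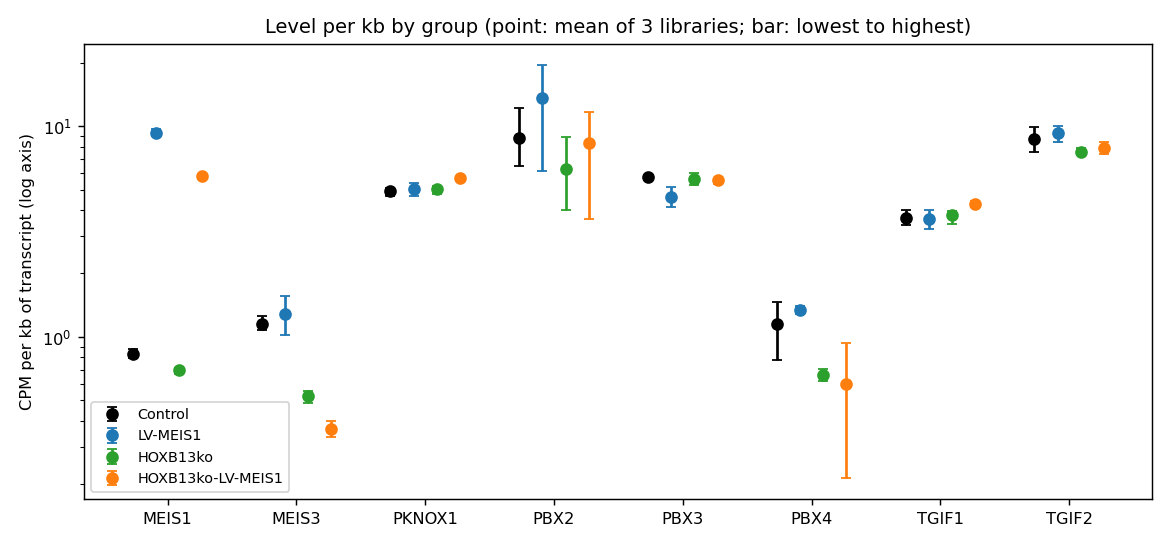
Level per kb of the longest coding transcript (vertical axis, logarithmic, CPM per kb) for the 8 TALE genes in the 4 groups, with points for the mean of 3 libraries and bars from the lowest to the highest library. MEIS1 moves from 0.831 CPM per kb in Control to 9.27 in LV-MEIS1, while PKNOX1, PBX3, TGIF1 and TGIF2 stay within a narrow band.

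Iroquois genes encode a further branch of TALE proteins, known for their part in patterning tissues. IRX3 and IRX5 were listed of 7 further TALE genes examined, which were the Iroquois genes and MKX. IRX5 had 29.8, 32.3 and 27.1 CPM in Control and 78.4, 72.5 and 80.7 CPM in LV-MEIS1. It had 31.2, 30.1 and 30.3 CPM in HOXB13ko and 30.8, 36.6 and 33.4 CPM in HOXB13ko-LV-MEIS1. LV-MEIS1 stood above the other groups, which overlapped. IRX5 rose in LV-MEIS1 against Control by 1.36 ± 0.08 on the log2 scale (SE; limma treat adjusted p = 2.7e-06), and in HOXB13ko-LV-MEIS1 its log2 difference from HOXB13ko was 0.13 ± 0.08 (limma eBayes adjusted p = 0.433). The difference between these effects was 1.23 ± 0.11 (limma treat adjusted p = 0.00105).

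IRX3, which neighbours IRX5 in the same gene cluster, had 84.9, 101 and 96.6 CPM in Control and 157, 148 and 169 CPM in LV-MEIS1. It had 102, 92.2 and 87.6 CPM in HOXB13ko and 85.8, 98.7 and 105 CPM in HOXB13ko-LV-MEIS1. Again LV-MEIS1 alone stood apart. The log2 difference of 0.74 ± 0.08 in LV-MEIS1 against Control had a limma eBayes adjusted p of 7.6e-06 and a treat adjusted p of 0.655, and IRX3 was named after its values were seen. Between HOXB13ko-LV-MEIS1 and HOXB13ko the log2 difference was 0.04 ± 0.08 (95% interval -0.15 to 0.22), and the difference between the MEIS1 effects was 0.71 ± 0.12 (limma eBayes adjusted p = 5.3e-04).

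**Figure D5:**
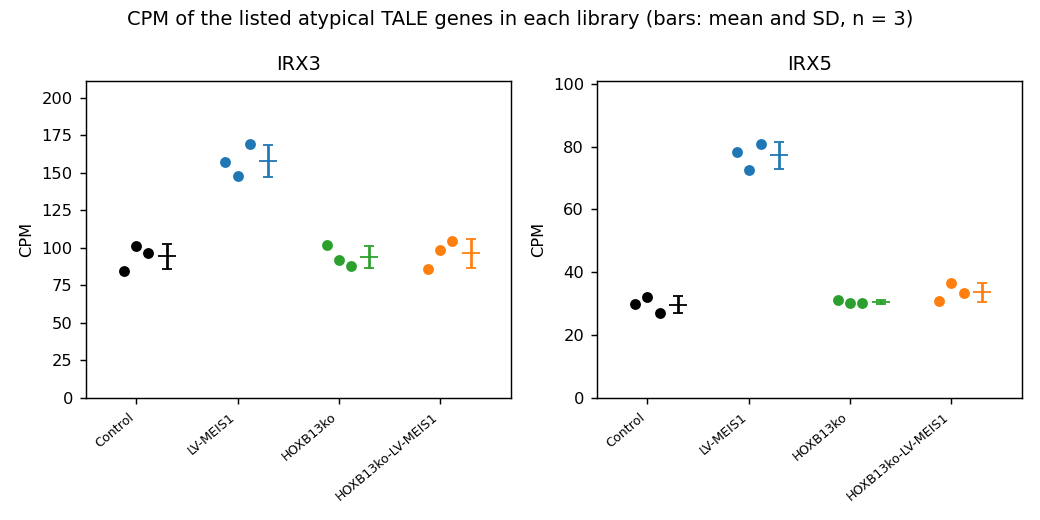
CPM (vertical axis, linear, from 0) of IRX3 and IRX5 in each library, with 1 point per library and the mean and SD of 3 libraries beside each group on the horizontal axis. LV-MEIS1 libraries lie between 148 and 169 CPM for IRX3 and between 72.5 and 80.7 CPM for IRX5, above the other 3 groups, which overlap.

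HOX genes, whose products are the DNA-binding partners of MEIS, PKNOX and PBX proteins, were read as 2 lists. Of groups 9 to 13, 12 of 16 genes were listed. In LV-MEIS1 against Control limma's treat called HOXD9, where it called 3.99% of all genes. Limma's eBayes called 2 higher and 5 lower, beside 23.2% and 21.3% of all genes. In HOXB13ko against Control treat called 0, where it called 1.41% of all genes. There eBayes called 3 higher and 2 lower, beside 16.5% and 16.4% of all genes. HOXD9 had 0.407, 0.692 and 0.887 CPM in Control and 2.66, 2.02 and 2.81 CPM in LV-MEIS1, a log2 difference of 1.38 ± 0.19 (SE; limma treat adjusted p = 0.0164). That call was lost without replicate 1 of Control (0.0842), replicate 1 of LV-MEIS1 (0.0693) or replicate 3 of LV-MEIS1 (0.0883), and with a pseudocount of 1 (0.07). The Control libraries held about 7 to 23 estimated reads of HOXD9. The difference between the MEIS1 effects on HOXD9 was 1.56 ± 0.28 (limma eBayes adjusted p = 7.4e-04, treat adjusted p = 0.0531). In HOXB13ko-LV-MEIS1 against LV-MEIS1 treat called HOXB13 of this list, where it called 6.71% of all genes. HOXB13 mRNA was higher by 1.23 on the log2 scale (limma treat adjusted p = 3.9e-06), although the label names it as knocked out. The study checked that knockout on the protein, by western blot. Limma's eBayes called 4 higher and 2 lower, beside 24% and 26.1% of all genes. In HOXB13ko-LV-MEIS1 against HOXB13ko neither rule called a gene of this list, whose median was 0.06. There treat called 0.00717% and eBayes 0.0502% of all genes.

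Of HOX groups 1 to 8, whose products bind PBX through a short motif beside the homeodomain, 15 of 23 genes were listed. Limma's treat called 0 of them in each comparison, where it called between 0.00717% and 6.71% of all genes. In LV-MEIS1 against Control eBayes called 8 higher and 1 lower, beside 23.2% and 21.3% of all genes, and the median log2 difference was 0.35, beside 0.01 over all genes. In HOXB13ko against Control it called 3 higher and 1 lower, beside 16.5% and 16.4%, with a median of -0.03. In HOXB13ko-LV-MEIS1 against LV-MEIS1 eBayes called 7 lower and 0 higher, beside 26.1% and 24% of all genes, with a median of -0.19. In HOXB13ko-LV-MEIS1 against HOXB13ko it called none, beside 0.0502% of all genes, with a median of -0.10.

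The corepressors and SMADs that work with TGIF proteins (SMAD2, SMAD3, SMAD4, SKI, SKIL, HDAC1, HDAC2, SIN3A, CTBP1 and CTBP2) were all listed, 10 of 10. For these genes treat called 0 in each comparison, where it called between 0.00717% and 6.71% of all genes. Limma's eBayes called 2 higher and 4 lower in LV-MEIS1 against Control, beside 23.2% and 21.3% of all genes. It called 6 higher and 1 lower in HOXB13ko against Control, beside 16.5% and 16.4% of all genes, where the median was 0.19. It called 5 higher and 0 lower in HOXB13ko-LV-MEIS1 against LV-MEIS1, beside 24% and 26.1%. In HOXB13ko-LV-MEIS1 against HOXB13ko it called none, beside 0.0502% of all genes. The coregulators of PBX and MEIS proteins were also all listed, 10 of 10, and treat called 0 of them in each comparison, beside the same shares of all genes. In LV-MEIS1 against Control eBayes called 1 coregulator higher and 2 lower, beside 23.2% and 21.3% of all genes, and these 3 were named after their values were seen. In HOXB13ko against Control it called 1 higher and 1 lower, beside 16.5% and 16.4% of all genes. In HOXB13ko-LV-MEIS1 against LV-MEIS1 it called 2 higher and 5 lower, beside 24% and 26.1%. In HOXB13ko-LV-MEIS1 against HOXB13ko eBayes called none, beside 0.0502% of all genes. PBXIP1, which encodes a protein that binds PBX and limits its activity, was the coregulator called higher. It had 39.4, 43.8 and 41.8 CPM in Control and 68.7, 66.9 and 71.3 CPM in LV-MEIS1, a log2 difference of 0.72 ± 0.09 (SE; limma eBayes adjusted p = 1.2e-05). It had 44.7, 41.7 and 41.3 CPM in HOXB13ko and 39.0, 51.6 and 49.5 CPM in HOXB13ko-LV-MEIS1, which overlapped, and the difference between the MEIS1 effects was 0.60 ± 0.12 (limma eBayes adjusted p = 0.00206). CRTC3 and CRTC1, which encode coactivators of CREB, were the coregulators called lower. CRTC3 had 29.3, 25.4 and 28.1 CPM in Control and 18.2, 20.1 and 17.3 CPM in LV-MEIS1, a log2 difference of -0.56 (limma eBayes adjusted p = 6.7e-05), and the difference between the MEIS1 effects was -0.58 (limma eBayes adjusted p = 0.00167). For CRTC1 the log2 difference in LV-MEIS1 against Control was -0.31 (limma eBayes adjusted p = 0.00123), and the difference between the effects did not pass (limma eBayes adjusted p = 0.0634).

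For each member the genes of at least 5 CPM with the most similar pattern were found by Pearson's correlation of log2(CPM + 0.5) over the 12 libraries, which share groups and depth. For MEIS1 these were CPE (0.963) and ITM2B (0.924), and for MEIS3 they were ABCC5 (0.973) and SPTAN1 (0.973). For PBX3 they were FHDC1 (0.931) and SCLY (0.925), for PBX4 VASH1-AS1 (0.945), and for PBX2 C2orf68 (0.825) and ZSCAN21 (0.814). For PKNOX1 they were RALB (0.930) and CBX1 (0.883), for TGIF1 FAM220A (0.906) and NSDHL (0.797), and for TGIF2 DYNLT1 (0.947) and GCHFR (0.945). Among the members themselves the highest value was that of MEIS3 with PBX4 (0.760), and the lowest was that of MEIS1 with PBX3 (-0.632).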

How the data were processed

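CPM values of 12 libraries (3 per group, labels as source of groups) were used as deposited by the authors. Per the labels and methods, reads were trimmed with Trimmomatic 0.38, assigned with kallisto 0.43.1 to Ensembl GRCh38.p12 transcripts without strand, summed to genes, filtered for low counts and normalised in edgeR 3.22.2. Each table held 13993 rows by symbol, and 42 exact repeats were dropped. CPM summed to 940564 to 992328 per library. Reads were not recovered, because 39.9% to 54.0% of values under 1 CPM lay within 0.05 of whole multiples of the estimated step. The depths are point estimates, and no interval on them was computed.

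Linear models with 1 mean per group and a trended prior were fitted in limma 3.58.1 (R 4.3.3) to log2(CPM + 0.5) of 13951 genes. This stands in for the authors' count test at the same fold change of 1.5. The fit was tested on simulated data with the same spread setting for every gene and changes in LV-MEIS1 only. That test therefore does not cover genes of wide spread such as PBX2, nor the difference of the MEIS1 effects. Every member was named, with HOXB13, the treat-called genes of the partner lists (up to 3 per list and comparison) and the 2 best correlated genes per member, of which 1 is not reported here. The members and lists were chosen with earlier results of these data known, and they do not include every TALE gene. Transcript lengths, positions and coding sequence came from GENCODE release 44. The tables hold no columns of the authors' comparisons. Alternatives were other pseudocounts, scalings, filters, thresholds, a replicate term, fits of only the libraries compared and leaving out each library. Figures were drawn with matplotlib 3.10.9.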

Additional observations from a re-analysis of the deposited data

Results flagged for a closer look

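Among the genes described with values, 8 had a MEIS1 effect (LV-MEIS1 against Control) that differed from the effect in the lines labelled HOXB13ko by a test of the difference itself. For IRX5 the log2 difference between the effects was 1.23 and passed limma's treat. For the other 7 genes it passed limma's eBayes test and not treat. It was 0.71 for IRX3, 0.44 for MEIS1 itself, 1.56 for HOXD9, 0.60 for PBXIP1, -0.49 for HOXB13, -0.58 for CRTC3 and -0.66 for the stromal marker ACTA2. All 3 LV-MEIS1 libraries lay above all 3 Control libraries for the genes with a positive value and below them for HOXB13, CRTC3 and ACTA2. The genes tested were the 8 members with IRX3, IRX5, HOXD9, HOXB13, PBXIP1, CRTC3, CRTC1 and ACTA2, and 34.2% of all genes passed the same eBayes test. MEIS1 was the only member that passed. IRX3, IRX5, HOXD9, PBXIP1, CRTC3 and CRTC1 were named for a difference of LV-MEIS1 from Control, which is part of the difference tested. ACTA2 was named for a difference between HOXB13ko-LV-MEIS1 and LV-MEIS1, which shares its libraries. The count of genes that passed is therefore not support of its own. The mean CPM of MEIS1 in HOXB13ko-LV-MEIS1 was 1.59-fold lower than in LV-MEIS1, and the part of that lower level in the other values was not tested. Groups of 3 libraries were too small for a test of outlying libraries.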

How the results depend on the processing

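Counts of members called changed only with limma's eBayes in place of treat, to 2 in LV-MEIS1 against Control, 2 in HOXB13ko against Control, 4 in HOXB13ko-LV-MEIS1 against LV-MEIS1 and 1 in the difference of the MEIS1 effects. With the replicate number as a block the counts were 1, 0, 1, 1 and 0, as without it, and the numbers did not pair the samples (correlations of same-numbered libraries from -0.297 to 0.079). Leaving out each library kept these counts. The lower MEIS1 level in HOXB13ko-LV-MEIS1 ranged from -0.686 to -0.63 without single libraries. Of 872 values of members under alternatives, 844 kept direction and call, 7 were called with eBayes in place of treat, and 21 changed sign, none of them called, and the cause was not tested. The call of the partner gene HOXD9 in LV-MEIS1 against Control was lost under 5 alternatives, namely a pseudocount of 1, a threshold of 0.01 and leaving out 1 of 3 single libraries. Under quantile scaling the log2 difference of PBX3 was 0.0142 in HOXB13ko-LV-MEIS1 against HOXB13ko. Without single libraries, LV-MEIS1 against Control ranged from -0.0233 to 0.231 for MEIS3, -0.00307 to 0.346 for PBX4, -0.00905 to 0.0908 for PKNOX1, -0.0912 to 0.0522 for TGIF1 and -0.000206 to 0.192 for TGIF2. HOXB13ko against Control ranged from -0.00798 to 0.0638 for PKNOX1, -0.0116 to 0.106 for TGIF1 and -0.0727 to 0.0167 for PBX3. HOXB13ko-LV-MEIS1 against HOXB13ko ranged from -0.0152 to 0.808 for PBX2, -0.061 to 0.0284 for PBX3 and -0.446 to 0.163 for PBX4. The difference of the effects ranged from -0.0618 to 0.130 for TGIF2 and -0.288 to 0.707 for PBX2. Scalings moved the median of all genes by at most 0.04 on the log2 scale. Depth limits PBX4 and MEIS3, at fewer than 72 estimated reads per library. The partner gene HOXD9 is limited too, at 7 to 23 estimated reads in Control.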
